A study of Mus musculus with 2 samples.

Results

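The genes described here are 8 ligands and receptors of the platelet-derived growth factor (PDGF) and angiopoietin pathways: the ligands Pdgfa, Pdgfb, Angpt1 and Angpt2 and the receptors Pdgfra, Pdgfrb, Tek (Tie2) and Tie1. They were taken by name from 24060 genes with a count in either of 2 droplet-based single-cell RNA sequencing libraries of adult mouse spinal cord, and their levels were read in endothelial, mural and ependymal cells. All cells came from C57BL/6j mice of 10 to 12 weeks of the genotype Clec9a cre/cre R26 LSL-tdTomato/LSL-tdTomato. Clec9a encodes DNGR-1, so Cre follows its expression, and the tdTomato reporter is switched on where Cre has removed a stop (LSL). The cells were depleted of myelin and sorted as live, CD45- and CD133+ (prominin 1). Cells with tdTomato, a mark of present or past Clec9a expression, went into the library named CD133+ DNGR-1 traced. Cells without it formed the other library, CD133+ non-traced. The label therefore depends on the Clec9a promoter, and no cell of either library has an unmodified Clec9a locus. Each sort was 1 library and the number of animals in it is not given in the sources used here, so there is no replicate check and no test; every interval below is a 95% interval that covers counting error only.

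The PDGF and angiopoietin pathways are the classic dialogue between the vessel lining and the mural cells (pericytes and smooth muscle) around it. Endothelial cells release PDGF-B, which acts on the receptor PDGFR-β of mural cells and brings them to the vessel, while mural cells release angiopoietin-1, which acts on the endothelial receptor Tie2 and keeps the vessel quiet and tight. Angiopoietin-2, made by activated endothelium, can act against this signal, and Tie1 is a partner receptor of Tie2 without a well-established ligand of its own. PDGF-A acts on PDGFR-α, a receptor known from fibroblasts and oligodendrocyte progenitors.

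The non-traced library held 25411 cells with 233318692 unique molecular identifiers (UMIs, tags that mark captured RNA molecules; median 7218 per cell) and the traced library held 4825 cells with 46530507 UMIs (median 8566). Each library was clustered on its own without the 8 genes, and clusters were named from marker genes. In the non-traced library 20588 cells (81.0%) in 23 clusters were endothelial-like, of which 4181 were arterial-like, 6820 capillary-like and 3127 venous-like and 6460 had no clear segment. A further 149 cells were mural-like (pericyte) and 1352 (5.32%) were ependymal-like. Of the 4825 traced cells 4554 (94.4%) were ependymal-like and 64 were endothelial-like. All 8 endothelial, 10 pericyte and 10 ependymal markers were found in every cluster given the respective name. Heat shock, interferon or immediate early genes led some endothelial-like clusters (Hspa1a, Ifit1 and Fosb among them), and 42 barcodes occurred in both libraries.

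Clusters with the markers of more than 1 class were kept apart. They included 1199 droplets with endothelial and pericyte markers, 967 endothelial cells led by pericyte genes, and 347 droplets that also had smooth muscle markers. Endothelial RNA was also found in cells named otherwise. The 8 endothelial markers summed to 26594 counts-per-million (CPM) in endothelial-like cells and 3966 CPM in mural-like cells. Among ependymal-like cells the sum was 3114 CPM for the non-traced and 14.4 CPM for the traced library. Levels are therefore also given for cells in which these markers made up less than 0.2% of the UMIs, a cutoff chosen after the data had been seen. This left 84 mural-like cells, 91 smooth-muscle-like cells out of the 347 droplets, and 1131 non-traced ependymal-like cells, which are called low-endothelial below. Of the 149, 347 and 1352 cells from which they were taken, 60, 33 and 67 lay between 0.1% and 0.4%, close to the cutoff.

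Because Tek and Tie1 were both highest in endothelial-like cells, their promoters are shown. RefSeq entries (GRCm38.p6, 250 bases before to 50 after the start) were matched for 4 of the 8 genes. The sequences are given on the strand of the gene, 5′ to 3′, and capitals mark matches on either strand to the motif of GATA factors (AGATAA) in Tek and to that of ETS factors (AGGAAG) in Tie1.
Tek, chr4:94739039-94739338, plus strand: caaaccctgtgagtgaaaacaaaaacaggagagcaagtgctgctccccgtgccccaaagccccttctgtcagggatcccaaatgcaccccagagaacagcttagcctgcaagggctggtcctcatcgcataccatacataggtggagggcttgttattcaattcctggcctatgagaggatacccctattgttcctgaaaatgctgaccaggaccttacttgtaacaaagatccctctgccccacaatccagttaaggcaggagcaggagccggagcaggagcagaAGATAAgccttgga
Tie1, chr4:118489800-118490099, minus strand: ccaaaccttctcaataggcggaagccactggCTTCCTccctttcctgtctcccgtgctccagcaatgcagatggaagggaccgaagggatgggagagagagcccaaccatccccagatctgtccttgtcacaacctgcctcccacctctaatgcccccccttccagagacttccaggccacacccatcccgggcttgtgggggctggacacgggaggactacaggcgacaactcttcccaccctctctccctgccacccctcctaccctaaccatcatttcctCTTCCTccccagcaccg
The Tek window held 1 AGATAA and 0 AGGAAG, and the Tie1 window held 2 AGGAAG and 0 AGATAA. Of 32851 promoters of the same length, 35.4% held AGGAAG at least once, 8.62% held it at least 2 times, and 11.2% held AGATAA, so these letters are common and are given as a description. Of the 2 entries for Pdgfa, 1 held a single AGGAAG, and the Pdgfra entry held neither motif.

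Pdgfa, on chr5:138976014-138997370 (GRCm38, minus strand), encodes the chain of PDGF-A. Among endothelial cells it followed the vessel segment. Its level was 131 CPM (127 to 134) in arterial-like cells, 37.3 CPM (35.1 to 39.5) in venous-like cells and 17.8 CPM (16.7 to 19.0) in capillary-like cells. Arterial-like cells thus had 7.33 times (6.84 to 7.87) the capillary level, and venous-like cells had 2.09 times (1.92 to 2.28) that level. All 5 arterial-like clusters, at 76.4 to 196 CPM, lay above all 3 venous-like clusters, at 27.1 to 48.6 CPM. The 6 capillary-like clusters, at 12.5 to 28.3 CPM, overlapped with the venous-like clusters. Split by the 6 smooth muscle markers, the Pdgfa level was 125 CPM (122 to 129) in the 3267 arterial-like cells without a UMI of these markers and 145 CPM (138 to 153) in the other 914.

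The highest Pdgfa level was found outside the endothelium. Low-endothelial smooth-muscle-like cells had 446 CPM (397 to 499), with 304 UMIs in 91 cells. This was 5.54 times (3.68 to 8.70) the level of low-endothelial mural-like cells, 80.5 CPM (52.1 to 119), and 3.42 times (3.03 to 3.84) that of arterial-like cells. Ependymal-like cells held Pdgfa at a middle level, 56.3 CPM (52.0 to 60.8) in the non-traced library and 58.5 CPM (56.3 to 60.9) in the traced library. The 24 traced ependymal-like clusters ranged from 41.1 to 75.2 CPM, and none was without the gene.

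Pdgfb, on chr15:79995874-80014977 (minus strand), encodes PDGF-B, the ligand that recruits pericytes. It was an endothelial gene in these data, at 264 CPM (261 to 266) over all endothelial-like cells. Arterial-like cells had 317 CPM (312 to 323), capillary-like cells 269 CPM (264 to 273) and venous-like cells 203 CPM (198 to 208). The order was thus arterial, capillary, venous, the reverse of the capillary and venous order of Pdgfa, but the steps were small, at 1.18-fold (1.15 to 1.21) from capillary to arterial and 1.33-fold (1.29 to 1.37) from venous to capillary. The capillary-like clusters, at 228 to 289 CPM, lay below all arterial-like clusters, at 294 to 406 CPM, and overlapped with the venous-like clusters, at 167 to 239 CPM. Pdgfb was low in low-endothelial mural-like cells, at 19.3 CPM (7.09 to 42.1) from 6 UMIs, and in smooth-muscle-like cells, at 24.9 CPM (14.5 to 39.9). Traced ependymal-like cells had 0.553 CPM (0.354 to 0.822).

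**Figure D1:**
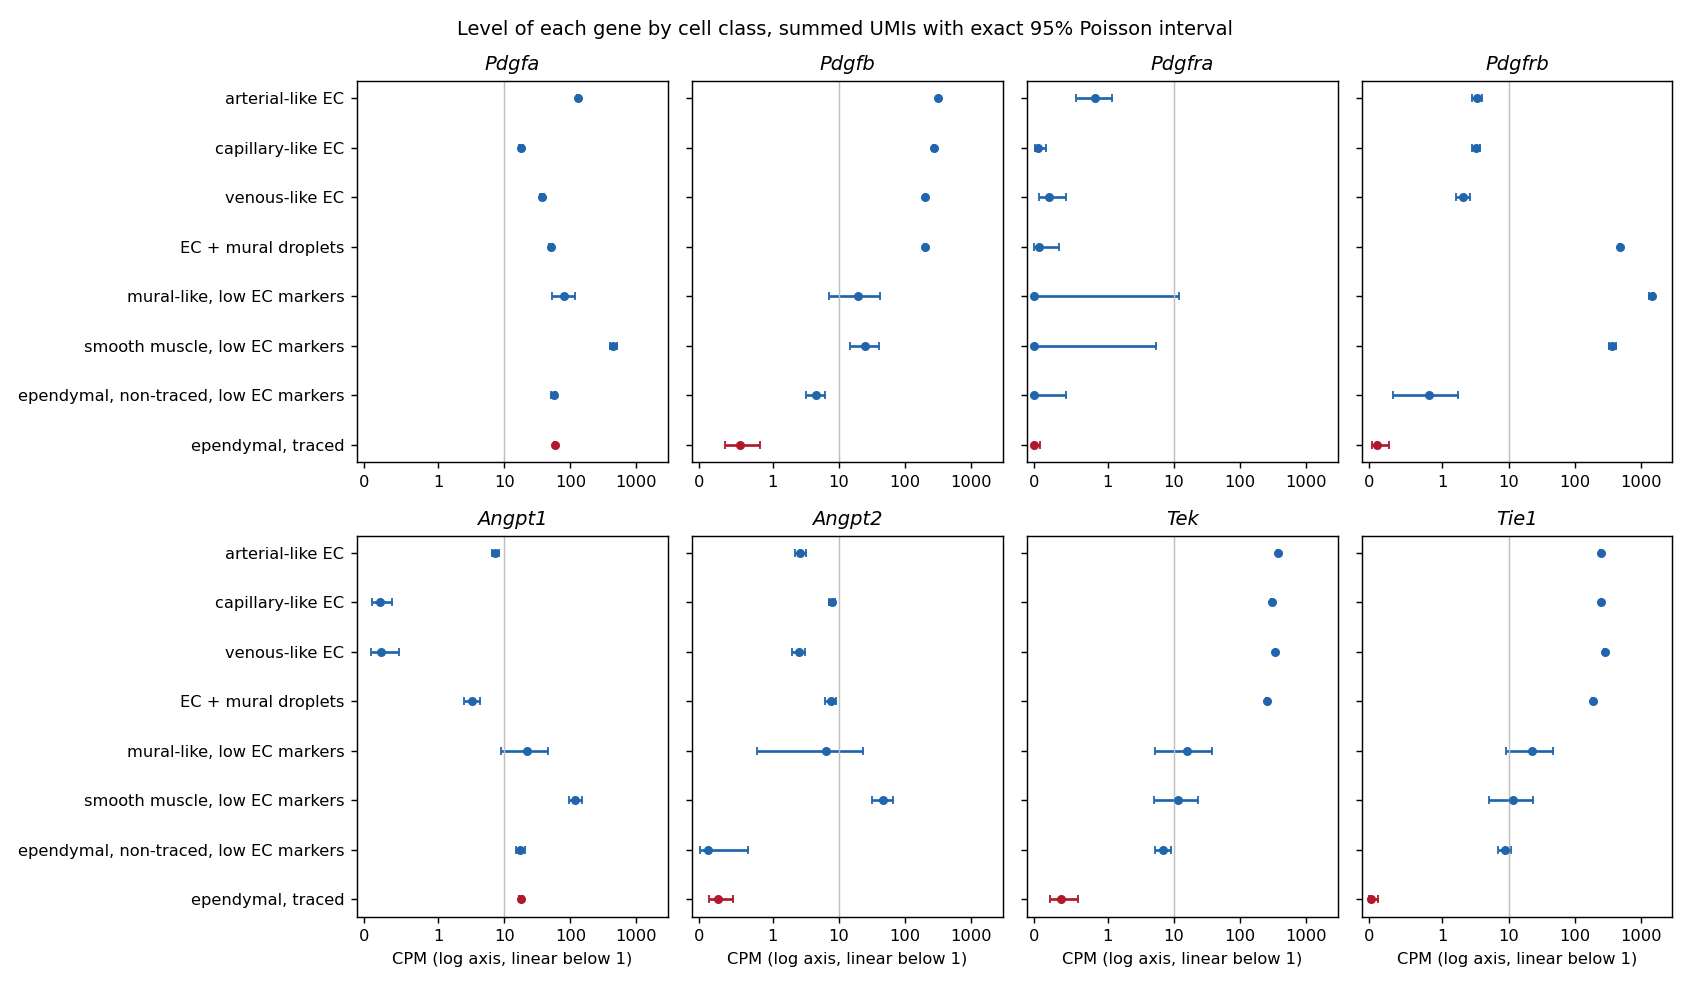
Level of each of the 8 genes by cell class, in CPM of summed UMIs on an axis that is logarithmic above 1 CPM and linear below, with exact 95% Poisson intervals; blue points are classes of the non-traced library, red points the traced ependymal-like cells, EC stands for endothelial cell and the grey line marks 10 CPM. Pdgfb, Tek and Tie1 are highest in the endothelial classes, Pdgfrb in mural-like cells (1462 CPM), and Pdgfa, Angpt1 and Angpt2 in smooth-muscle-like cells (446, 119 and 47.0 CPM).

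Angpt1, on chr15:42424723-42676977 (minus strand), encodes angiopoietin-1, the ligand that activates Tie2. Its highest level was in low-endothelial smooth-muscle-like cells, at 119 CPM (94.4 to 148), with 81 UMIs in 91 cells. This was 5.27 times (2.45 to 13.5) the level of low-endothelial mural-like cells, 22.5 CPM (9.06 to 46.4), which rests on 7 UMIs. All 7 Angpt1 UMIs of the 149 mural-like cells were in the 84 low-endothelial cells. In the pericytes of this sort Angpt1 was therefore detected in few cells: 7.14% of the 84 had a UMI, against 50.5% of the smooth-muscle-like cells (median depths 3526 and 7247 UMIs). After thinning to 1000 UMIs per cell the shares were 2.38% (0.290 to 8.34) and 12.1% (6.19 to 20.6), whose intervals overlap, and 0.0440% in capillary-like cells (median depth 6281 UMIs).

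Angpt1 was also found in a small set of arterial-like cells. Of the 311 Angpt1 UMIs in arterial-like cells, 258 came from 948 cells in 2 of the 5 clusters, at 28.2 and 22.4 CPM. These 2 clusters were singled out by that level, so their distance from the others is a description. The cluster at 28.2 CPM was led by Cytl1, Fbln5 and Mgp and the cluster at 22.4 CPM by Pi16, S100a4 and Fabp4. The other 3233 arterial-like cells had 1.62 CPM (1.22 to 2.12). In capillary-like and venous-like cells Angpt1 was near 0, at 0.210 CPM (0.105 to 0.377) and 0.230 CPM (0.0923 to 0.473). Of the 948 cells, the 678 without a UMI of the smooth muscle markers had 27.5 CPM (23.6 to 31.9) and the 270 cells with at least 1 had 24.8 CPM (19.7 to 30.9). The same 2 clusters had the highest Pdgfa levels of the endothelium, 196 CPM (186 to 207) and 192 CPM (176 to 209).

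**Figure D2:**
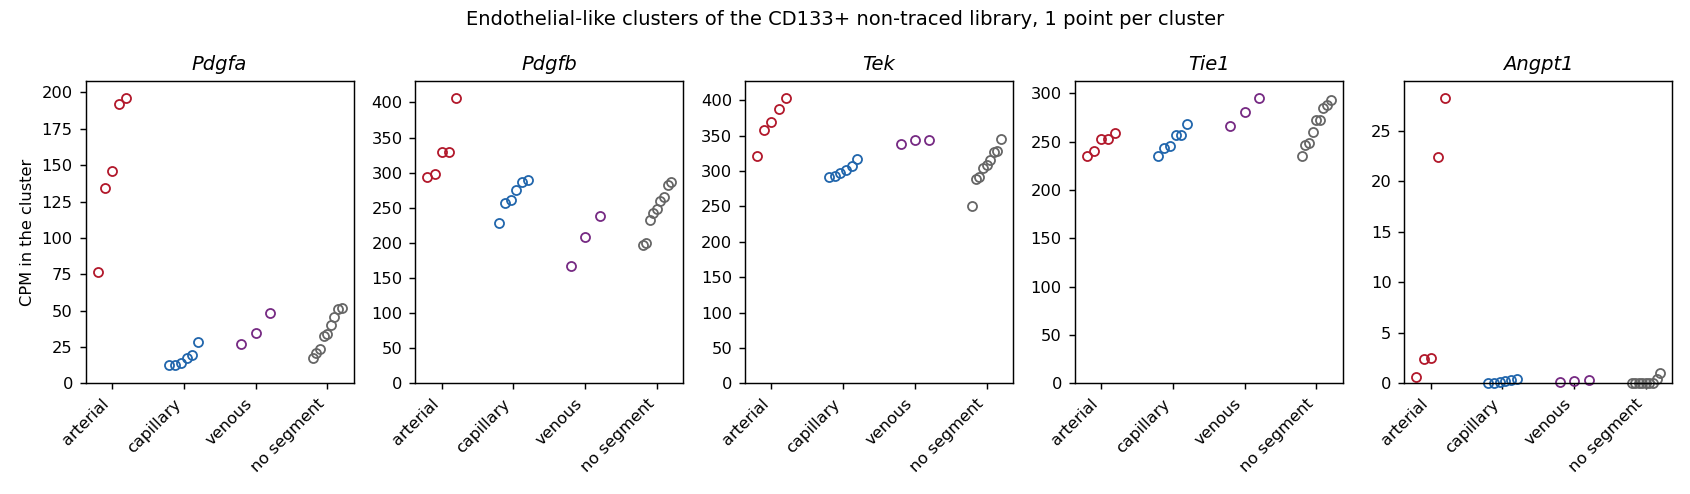
CPM of Pdgfa, Pdgfb, Tek, Tie1 and Angpt1 in the 23 endothelial-like clusters of the non-traced library, 1 circle per cluster, grouped by vessel segment and ordered by level within a segment; each vertical axis starts at 0. Pdgfa separates the arterial-like clusters from the others, Angpt1 is raised in 2 arterial-like clusters, and Tek and Tie1 vary little between segments.

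Angpt2, on chr8:18690263-18741562 (minus strand), encodes angiopoietin-2, known as a marker of activated or sprouting endothelium. It was low in the endothelium, at 5.10 CPM (4.78 to 5.44). Capillary-like cells had 7.86 CPM (7.12 to 8.66), 3.0 times (2.43 to 3.73) the arterial-like level of 2.62 CPM and 3.20 times (2.49 to 4.15) the venous-like level of 2.46 CPM. Capillary-like clusters spread from 2.43 to 11.9 CPM and overlapped with both other segments (1.14 to 4.08 and 1.42 to 3.68 CPM). All these levels but the highest clusters were under the 10 CPM used as a floor for comparisons. The highest endothelial-like values were in small inflammatory clusters without a clear segment. A cluster of 36 cells led by Cxcl10 and Cxcl9 had 30.3 CPM (13.1 to 59.6), from 8 UMIs, and a cluster of 347 cells led by Cxcl2, Cxcl1 and Icam1 had 17.0 CPM (12.8 to 22.3). Low-endothelial smooth-muscle-like cells had 47.0 CPM (32.1 to 66.3), while low-endothelial mural-like cells held 2 UMIs in all. The gene was almost absent from ependymal-like cells, with 5 UMIs in 1352 non-traced and 11 UMIs in 4554 traced cells.

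Pdgfra, on chr5:75152292-75198215 (plus strand), encodes PDGFR-α, the receptor for PDGF-A. In the cells that held its ligand the receptor was close to undetected: 60 UMIs in 20588 endothelial-like cells (0.334 CPM), 1 UMI in 1352 non-traced ependymal-like cells, and 0 in the 149 mural-like cells. In traced ependymal-like cells the count was 0, which allows up to 0.0691 CPM, or a UMI in up to 0.0659% of the 4554 cells. The exception was a cluster of 32 fibroblast-like cells, with 362 CPM (305 to 426) and a UMI in 87.5% of the cells (median depth 12116 UMIs), against 0.272% of endothelial-like cells (6879).

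Pdgfrb encodes PDGFR-β, the receptor through which PDGF-B acts on pericytes. It stood at 1335 CPM (1249 to 1426) in mural-like cells and at 2.92 CPM (2.67 to 3.18) in endothelial-like cells, a ratio of 458 (410 to 511). At 1000 UMIs per cell, 71.8% (63.9 to 78.9) of mural-like and 0.296% (0.227 to 0.380) of endothelial-like cells had a Pdgfrb UMI. Without thinning the shares were 98.7% and 2.29%, at median depths of 4074 and 6879 UMIs. Low-endothelial mural-like cells had more of it than smooth-muscle-like cells: 1462 CPM (1331 to 1603) was 3.95 times (3.38 to 4.63) the 370 CPM (325 to 418) of the latter. The opposite held for the ligands Pdgfa, Angpt1 and Angpt2 above. The smooth-muscle-like cells also held the 10 pericyte markers, at a sum of 16078 CPM against 41506 CPM in the mural-like cells. The part of pericyte RNA in these ratios was not tested.

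The low Pdgfrb level of endothelial-like cells rose with the UMIs of the pericyte markers, and the source of these Pdgfrb UMIs was not tested. Cells with at most 1 UMI of the 10 pericyte markers had 1.38 CPM (1.16 to 1.64), cells with 2 to 9 had 2.45 CPM (2.06 to 2.90), and cells with 10 or more had 8.83 CPM (7.78 to 9.98). The 64 traced endothelial-like cells had 76.5 CPM (57.1 to 100). All 52 UMIs behind that value came from 9 of the 16 cells with 10 or more pericyte-marker UMIs, and the other 48 cells held 0. The pericyte markers summed to 2458 CPM in the 64 cells and to 484 CPM in non-traced endothelial-like cells. In the latter a single marker made up 399 CPM, so the split of these cells rests mostly on 1 gene.

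**Figure D3:**
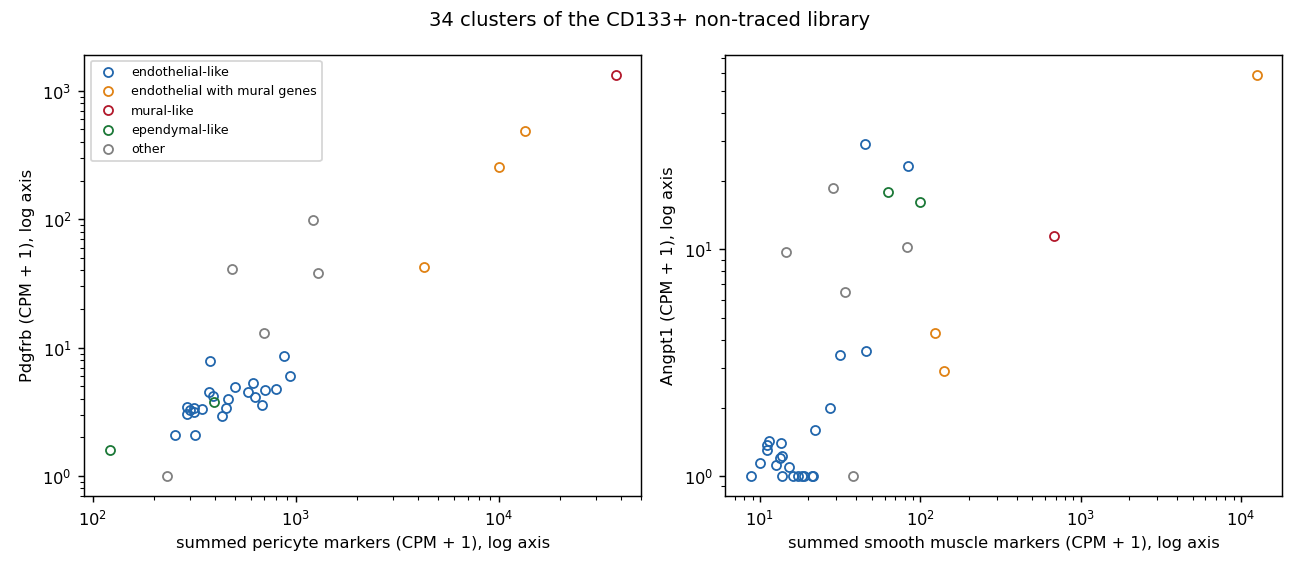
Pdgfrb against the summed pericyte markers (left) and Angpt1 against the summed smooth muscle markers (right) in the 34 clusters of the non-traced library, CPM + 1 on log axes, 1 circle per cluster and coloured by class. Pdgfrb is highest in the mural-like cluster, at 1335 CPM, and Angpt1 in the cluster with smooth muscle markers, with 2 endothelial-like clusters at 22.4 and 28.2 CPM.

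Tek, on chr4:94739289-94874976 (plus strand), encodes Tie2, the receptor for both angiopoietins. Its levels were 375 CPM (369 to 381) in arterial-like, 343 CPM (336 to 349) in venous-like and 302 CPM (297 to 306) in capillary-like cells. These intervals do not overlap, but the largest step, arterial over capillary, was 1.24-fold (1.22 to 1.27), and the arterial-like clusters (321 to 403 CPM) spanned the venous-like clusters (338 to 344 CPM). Tie1, on chr4:118471191-118490061 (minus strand), the partner receptor, was flatter still. It had 282 CPM (276 to 288) in venous-like, 250 CPM (246 to 255) in capillary-like and 248 CPM (244 to 253) in arterial-like cells, the latter pair with overlapping intervals. The receptors therefore varied much less along the vessel than the ligand Pdgfa.

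Both receptors were found together in most endothelial cells. A UMI of each was present in 71.1% (70.5 to 71.7) of endothelial-like cells and neither was present in 4.25%. The share with both was 78.0% in arterial-like, 76.4% in venous-like and 65.5% in capillary-like cells, at median depths of 8324, 7619 and 6281 UMIs, so the order follows the depth. In traced endothelial-like cells 75.0% (62.6 to 85.0) held both. At 1000 UMIs per cell a Tek UMI was present in 27.1% (26.5 to 27.7) of endothelial-like cells and in 0.0220% (0.000556 to 0.122) of traced ependymal-like cells; without thinning the shares were 85.2% and 0.329%, at median depths of 6879 and 8496 UMIs.

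Mural-like cells differed from endothelial-like cells by at least 2-fold on the log2(CPM + 1) scale in 5 of the 6 members that reached 10 CPM in either class, where 30.4% of all 9515 genes that reached it did so. Pdgfrb was higher by 8.41 and Angpt1, just over the floor at 10.5 CPM from 7 UMIs, by 2.0, while Pdgfb fell by 2.89, Tek by 2.40 and Tie1 by 1.92 on the log2 scale against the endothelial level. The median over the 6 was -0.68, against 0.07 over all genes. Pdgfa, at 0.56, was within 2-fold. In the 84 low-endothelial cells Tek was at 16.1 CPM in place of 61.8 and Tie1 at 22.5 CPM in place of 67.8. These cells were chosen for a low share of endothelial markers, so a fall of endothelial genes follows from the choice. The part of endothelial RNA in these levels was not tested. Per 1000 UMIs of the 8 endothelial markers, mural-like cells held 15.6 Tek UMIs (11.2 to 21.1), 8.74 Pdgfb UMIs (5.54 to 13.1) and 17.1 Tie1 UMIs (12.5 to 22.9), and endothelial-like cells held 12.4, 9.91 and 9.75, so that the Tie1 amount, from 45 UMIs, was above that of endothelial RNA.

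Between endothelial segments only Pdgfa passed the 2-fold line, in both comparisons, which share the capillary-like cells. Arterial-like against capillary-like cells, 1 of 4 members that reached 10 CPM differed, with 4.19% of 8441 genes doing so. Venous-like against capillary-like cells, 1 of 4 differed, with 2.11% of 8331 genes doing so. The log2 difference of Pdgfa was 2.81 in the arterial comparison and 1.02, close to the line, in the venous comparison.

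The droplets with endothelial and pericyte markers held the genes of both classes at intermediate levels. Pdgfrb was at 485 CPM (475 to 496), with a UMI in 98.3% of the 1199 droplets, while Tek was at 254 CPM (246 to 262), Tie1 at 190 CPM (183 to 197) and Pdgfb at 197 CPM (190 to 204). Their median depth, 12219 UMIs, was above that of endothelial-like (6879) and mural-like cells (4074). Scrublet, a doublet caller, marked 230 of the 1199, against 1367 of the 20588 endothelial-like and 0 of the 149 mural-like cells. The 10 pericyte markers gave a median weight of 30.4% of pericyte RNA (27.0 to 44.0% over the markers), taking the low-endothelial mural-like and the endothelial-like cells as pure. A mixture at this weight would hold 446 CPM of Pdgfrb, 235 of Tek, 187 of Tie1 and 189 of Pdgfb, so the observed levels were 1.09, 1.08, 1.01 and 1.04 times the weighted mean. Pdgfa was at 0.829 and Angpt1 at 0.40 times the weighted mean (50.2 against 60.6 and 3.27 against 8.17 CPM), the latter with the mural level resting on 7 UMIs. Pairs of cells in a droplet and pericyte RNA or fragments attached to endothelial cells cannot be told apart here. The 967 endothelial cells led by pericyte genes had less, with Pdgfrb at 41.7 CPM (37.7 to 46.0), and endothelial levels of Tek (314 CPM) and Tie1 (256 CPM). Here the markers gave a median weight of 6.02%, with a wide spread of 2.03 to 30.5%. The weighted mean for Pdgfrb was 90.7 CPM, so its observed level was only 0.459 times that. Tek, Tie1 and Pdgfb were at 1.01, 1.04 and 0.982 times their weighted means, and Pdgfa and Angpt1 at 0.7 and 0.614 times.

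In ependymal cells, the ciliated lining of the central canal, the pathway was represented by the ligands Pdgfa and Angpt1. The Angpt1 level of ependymal-like cells was 15.9 CPM (13.7 to 18.3) when non-traced and 17.9 CPM (16.7 to 19.2) when traced, and Pdgfa at 56.3 and 58.5 CPM as given above. Against the endothelial-like cells of the non-traced library, 4 of the 5 members that reached 10 CPM differed by at least 2-fold, where 43.5% of all 10419 genes did. Angpt1 was 8.39 times (6.97 to 10.1) as high, while Pdgfb was 8.17-fold (7.37 to 9.07), Tek 8.90-fold (8.09 to 9.81) and Tie1 7.71-fold (6.97 to 8.54) lower. Pdgfa, at a ratio of 1.09 (1.0 to 1.18), was within 2-fold. The median log2 difference over the 5 was -2.91, against 0.08 over all genes.

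Traced and non-traced ependymal-like cells had like levels of these 2 ligands and differed in the endothelial members. The ratio of traced to non-traced was 1.04 (0.954 to 1.14) for Pdgfa and 1.13 (0.960 to 1.33) for Angpt1. Of the 5 members that reached 10 CPM, 3 were lower in traced cells by at least 2-fold, where 5.99% of all 9835 genes differed by as much. Pdgfb was at 0.553 against 32.3 CPM, Tek at 0.368 against 37.2 CPM and Tie1 at 0.0230 against 33.7 CPM, the traced value of Tie1 being 1 UMI. The median log2 difference over the 5 was -4.42, against 0.01 over all genes. These 3 genes reached 10 CPM only in the non-traced cells, so the median of the 5 had to fall on 1 of them. It does not describe a shift of the members as a set.

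The 3 lower genes are set here beside the endothelial markers, which were also lower in traced cells. As given above, the 8 endothelial markers summed to 3114 CPM without and 14.4 CPM with the tracer, with 0 and 1 of the 8 at a count of 0. Per 1000 UMIs of these markers, non-traced ependymal-like cells held 12.0 (10.8 to 13.1) Tek, 10.8 (9.76 to 11.9) Tie1 and 10.4 (9.34 to 11.5) Pdgfb UMIs, and endothelial-like cells held 12.4, 9.75 and 9.91. Pdgfa was at 18.1 and 1.95 per 1000. The low-endothelial non-traced cells, which were chosen by these same markers, held more of both receptors per 1000 marker UMIs, with 21.0 Tie1 UMIs (16.5 to 26.4) and 16.8 Tek UMIs (12.8 to 21.6), and 10.8 Pdgfb UMIs (7.65 to 14.8). Traced ependymal-like cells held 625 marker UMIs in all, beside 16 Tek, 24 Pdgfb and 1 Tie1 UMIs. Per 1000 marker UMIs this was 25.6 Tek (14.6 to 41.6), 38.4 Pdgfb (24.6 to 57.1) and 1.6 Tie1 UMIs (0.0405 to 8.91). In the 1131 low-endothelial cells, in which the markers summed to 414 CPM, Tek was at 6.94 CPM (5.28 to 8.95), Tie1 at 8.71 CPM (6.84 to 10.9) and Pdgfb at 4.47 CPM (3.16 to 6.14). All 3 were then under the 10 CPM floor, so that they no longer entered the count, but they were still lower in traced cells, Pdgfb by 8.09-fold (4.73 to 14.1), Tek by 18.8-fold (10.7 to 35.1) and Tie1 by 378-fold (65.8 to 15134), the last against 1 traced UMI. The part of endothelial RNA in these differences was not tested. Pdgfa (55.9 CPM) and Angpt1 (17.6 CPM) had traced to non-traced ratios of 1.05 (0.949 to 1.16) and 1.02 (0.851 to 1.22) in these cells.

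Among traced ependymal-like clusters Angpt1 varied more than Pdgfa, from 5.99 CPM (3.27 to 10.0) to 32.1 CPM (24.3 to 41.6). The clusters at the upper end, at 31.5 and 32.1 CPM, were led by genes such as Clu, Crygn and Cryab. The lowest cluster was led by Ly6h and Sntn, and clusters led by Ly6h and Pvalb had 8.14 CPM (5.10 to 12.3) and 8.90 CPM (5.09 to 14.5). Low levels were not limited to such clusters. A cluster of 58 cells led by Zfp419 and Rgs22 had 8.08 CPM (2.2 to 20.7), from 4 UMIs. Its Pvalb was at 8.08 CPM, and Crygn was among its leading genes too. A cluster of 42 cells led by Hist1h1b and Mki67 had 9.68 CPM (3.55 to 21.1), with Pvalb at 0. A cluster of 217 cells with Pvalb at 72.4 CPM but Anxa8 at 2.67 CPM had Angpt1 at 20.4 CPM (15 to 27.3). The cells were also split by the summed UMIs of Anxa8, Sncg and Pvalb, genes that mark a set of ependymal cells in these data. This regroups the same cells, among them those of the clusters just named, and is a further description of them. The 278 traced cells with 3 or more UMIs of these genes had 7.85 CPM of Angpt1 (5.13 to 11.5) and 3410 cells with none had 19.7 CPM (18.2 to 21.3), a ratio of 2.51 (1.70 to 3.87), at median depths of 10068 and 8302 UMIs. In the non-traced library the values were 8.36 CPM (3.82 to 15.9) in 99 cells and 16.1 CPM (13.3 to 19.2) in 935 cells, and the interval of the ratio, 1.92 (0.980 to 4.31), includes 1. Within this class Pdgfa did not follow the split, at 60.4 and 57.2 CPM in traced and 56.7 and 55.6 CPM in non-traced cells. A traced cluster of 207 cells led by Sntn, Ly6h and Aqp4 was outside the class and is not in the split. It held Sncg at 149, Pvalb at 140 and Anxa8 at 66.8 CPM. Its Pdgfa was at 73.8 CPM (63.4 to 85.4) and its Angpt1 at 7.42 CPM (4.4 to 11.7).

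**Figure D4:**
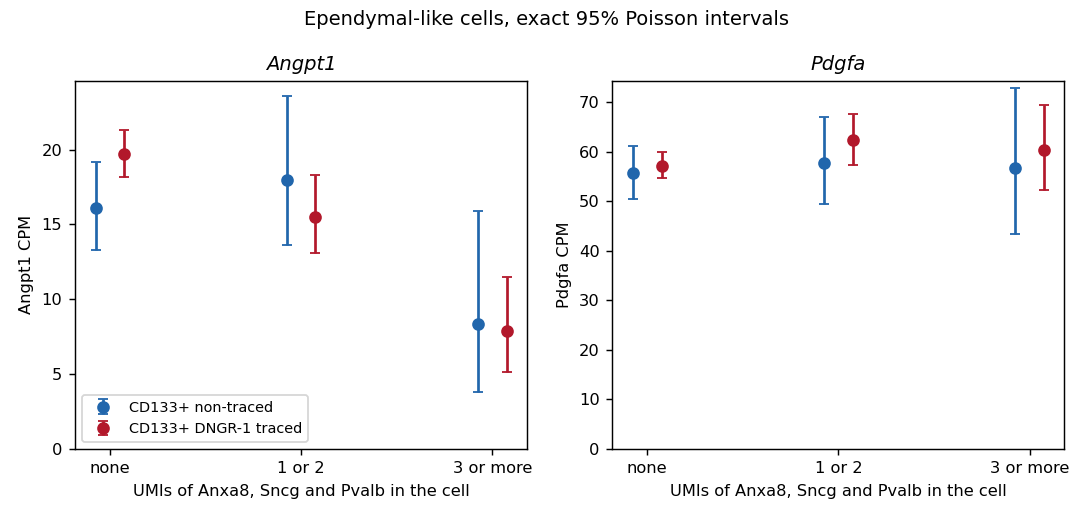
Angpt1 (left) and Pdgfa (right) in CPM in ependymal-like cells with no, 1 or 2, or 3 or more UMIs of Anxa8, Sncg and Pvalb, in the non-traced (blue) and the traced (red) library, with exact 95% Poisson intervals. Angpt1 is lowest in cells with 3 or more UMIs in both libraries (8.36 and 7.85 CPM), while Pdgfa stays between 55.6 and 62.4 CPM. The traced cluster of 207 cells led by Sntn, Ly6h and Aqp4 is not included.

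A list of 35 other genes of these pathways (further ligands, co-receptors and signalling proteins) was read in the same way. Mural-like against endothelial-like cells, 31 reached 10 CPM, of which 10 were higher and 9 lower by at least 2-fold, with a median of -0.16. Of all genes 30.4% passed this line, 15.9% higher and 14.5% lower. Lrp1, an endocytic receptor that associates with PDGFR-β, was at 420 against 2.18 CPM, and Pdgfrl, a PDGF receptor-like protein, at 18.1 against 0.340 CPM. Pik3r1, the regulatory subunit of PI 3-kinase, was at 191 against 35.8 CPM. Lower genes included Ptprb, the endothelial phosphatase that acts on Tie2, at 208 against 1100 CPM, the ligand Pdgfd at 7.53 against 56.4 CPM and the adaptor Grb14 at 33.2 against 207 CPM. In the 84 low-endothelial cells Ptprb was at 38.6 CPM (20.0 to 67.5) and Lrp1 at 428 CPM (359 to 508).

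Within the endothelium few genes of this list, as of all genes, passed the 2-fold line. Arterial-like against capillary-like cells, 25 of the 35 reached 10 CPM, with 0 higher and 1 lower, the adaptor Grb7 (7.48 against 17.4 CPM), beside 4.19% of all genes. Venous-like against capillary-like cells, 27 reached it, with 1 higher, the proteoglycan Sdc4 (10.9 against 4.21 CPM), and 0 lower, beside 2.11% of all genes. Pdgfd, at 82.8 CPM in arterial-like, 50.7 in capillary-like and 35.8 in venous-like cells, had the order of Pdgfb and was within 2-fold in both comparisons.

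Ependymal-like against endothelial-like cells of the non-traced library, 29 of the 35 reached 10 CPM, with 5 higher and 16 lower and a median of -1.08, where 26.0% of all genes were higher and 17.5% lower. The higher genes were Pdgfrl (60.9 against 0.340 CPM), Sdc4 (168 against 6.27 CPM), Lrp1 (62.2 against 2.18 CPM), Nck2 and Src. Pdgfrl, Lrp1 and Sdc4 had like levels in traced cells (53.6, 54.5 and 179 CPM). Traced against non-traced, 26 reached 10 CPM, with 0 higher and 3 lower, where 5.99% of all genes differed. The 3 were Ptprb (0.138 against 120 CPM), the co-receptor Nrp1 (0.207 against 25.7 CPM) and Plcg1 (7.39 against 20.2 CPM). In the low-endothelial non-traced cells these 3 were at 16.2, 3.18 and 12.5 CPM.

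The genes whose level was most like that of each member were found over the 34 clusters of the non-traced library, from log2(CPM + 1) values of 7106 genes, as Pearson correlations. They are a description, since the clusters share 1 library and many hold the same RNA. Tek was most like Cdh5, Ccm2l and Mecom (0.98 each) and Tie1 most like Ptprg (0.98), while Tek and Tie1 were at 0.95 with each other. Pdgfb was most like Acvrl1, Sigirr (0.98 each) and Fgd5 (0.97). Pdgfrb was most like Enpep (0.98), Cspg4 (0.97) and Cd248 (0.96), Pdgfra like Srpx, Osr2 and Ngfr (0.96 each), and Pdgfa like Marveld1 (0.87), Bmx (0.86) and Sncg (0.85). Angpt1 was most like Sfxn1 (0.92) and Palld (0.89), and Angpt2 had the lowest values, at 0.75 with Tnfaip1. Cdh5, Cspg4 and Bmx were among the markers used to name clusters.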

How the data were processed

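The authors processed the reads with Cell Ranger 3.0.2 and STAR 2.5.1b against mm10 with reporter sequences and deposited unnormalised UMI counts per gene and cell. Reporter rows were left out, and a gene without a row in a table was set at 0 there. The study's filter (50 genes, 10% mitochondrial genes) removed no cell. Scrublet marked 2209 non-traced cells (8.69%, 20.3% expected) and 0 traced cells (3.86% expected), so it did not work in the traced library; doublets were kept.

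Each library was clustered in scanpy 1.11.5 (resolution 2.0, 2000 variable genes, 20 components) without the 8 members and 35 pathway genes. Clusters were named from 12 marker lists where at least 3 markers were found in 50% of the cells, and called mixed with 70% of the markers of a further class. These limits were chosen on these data, and the members and lists were chosen with earlier results of these data known. Class names were rebuilt here and can differ from those of the study.

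Counts were summed per class, given as CPM with exact Poisson intervals and compared as log2(CPM + 1), which understates differences of low genes. Other folds are ratios of CPM with exact conditional intervals. Shares carry Clopper-Pearson intervals and, where stated, use cells thinned to 1000 UMIs (no cell was shallower). Intervals and floors of 3 counts cover counting error only. Ratios were tested on simulated data. All members were named, pathway genes where they reached 10 CPM in a class, and up to 3 like genes for each member among those with 50 CPM in a cluster. Alternatives were integration in Seurat 5.3.0, resolution 0.8, leaving out Scrublet calls, the mean over cells, no floor, pseudocount 0.1, thinning, 10% mitochondrial UMIs and marker limits.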

Additional observations from a re-analysis of the deposited data

How the results depend on the processing

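The counts of members at least 2-fold apart were recomputed under 9 alternatives chosen at the start and 1, the 0.2% limit on endothelial markers, chosen after seeing the data. Of 46 recomputed counts 32 equalled the reported ones. Of 368 differences of single members 263 stayed within the counting interval, 105 moved out of it and 0 changed sign. The count for arterial-like against capillary-like cells rose from 1 to 2 at resolution 0.8 and with at most 1 UMI of pericyte markers (Pdgfa and Angpt1), and to 3 without the 10 CPM floor (Pdgfa, Angpt1 and Angpt2). The count for venous-like against capillary-like cells fell from 1 to 0 with the integrated clusters and at resolution 0.8, where the log2 difference of Pdgfa was 0.92 and 0.79, and rose to 2 without the floor (Pdgfa and Angpt2). The count for traced against non-traced ependymal-like cells fell from 3 to 0 with the integrated clusters, with at most 1 endothelial-marker UMI and under the 0.2% limit, since Pdgfb, Tek and Tie1 came under the 10 CPM floor. Without the floor all 3 stayed more than 2-fold lower in traced cells under each of them, with log2 differences of -1.85, -2.46 and -3.10 in the integrated clusters, -1.56, -2.84 and -3.35 with at most 1 marker UMI, and -1.82, -2.54 and -3.25 under the 0.2% limit. Resolution 0.8 gave no mural-like class. Integration gave a cluster of 280 cells with pericyte markers led by smooth muscle genes, with Pdgfrb at 802 CPM and Tek at 39 CPM. Under the naming rule it did not count as mural-like, so the mural comparison has no value under either alternative. No paired analysis was possible because each group is 1 library. Depth limits the 84 mural-like and 91 smooth-muscle-like cells most, where 3 counts amount to 9.66 and 4.4 CPM.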

Other observations

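The 32 fibroblast-like cells, a class outside the comparisons, were the 1 class with a high Pdgfra level, and they also held Pdgfrb at 98.1 CPM (69.7 to 134) and Angpt1 at 17.6 CPM (7.08 to 36.3, from 7 UMIs). In the 22 of them under the 0.2% limit on endothelial markers, Pdgfra was at 387 CPM (311 to 477), Pdgfrb at 123 CPM (81.9 to 178), Pdgfrl at 203 CPM (148 to 270), and Lrp1 at 577 CPM (482 to 684).

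A mixed cluster of 96 droplets held astrocyte and endothelial markers. In the 40 of them under the same limit, Angpt1 was at 19.4 CPM (7.11 to 42.2, from 6 UMIs), Pdgfrb at 38.7 CPM (20.0 to 67.7) and Pdgfd at 38.7 CPM (20.0 to 67.7). A traced cluster of 207 cells with ependymal markers was kept out of the ependymal-like class because the astrocyte marker Aqp4 was among its leading genes. Its ependymal markers summed to 11657 CPM, against 8286 CPM in traced ependymal-like cells. The cluster had Pdgfa at 73.8 CPM (63.4 to 85.4) and Angpt1 at 7.42 CPM (4.4 to 11.7), and 0 UMIs of Tek and Tie1. The 546 droplets with endothelial and ependymal markers had Tek at 198 CPM (189 to 208), Pdgfa at 65.4 CPM (60.0 to 71.1) and Angpt1 at 9.23 CPM (7.28 to 11.6).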
